A study of Mus musculus with 6 samples.

Results

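The Ly6 family genes examined here encode small surface proteins that share the Ly6/uPAR domain, a finger-like fold held by disulphide bonds. The 10 symbols had been listed by gene name, and all 10 were found among the 24421 gene symbols of the count table. The list had been drawn up because Ly6g6c was higher and Gpihbp1 lower after neomycin. The differences between the groups are therefore given for all 10 genes as a description, with standard errors and without p-values, and they support nothing further. RNA was sequenced from cochlear explants of wild-type mice at postnatal day 2, with 3 control samples and 3 samples treated with neomycin, an aminoglycoside that kills hair cells (HCs). Explants rested in culture for 12 h before the drug, which was given at 1 mM and left on for 6 h. They were then kept with EdU, a label of newly made DNA, at 10 μM until harvest 5 days later. Each sample pooled 6 to 8 cochleae, and the modiolus, tectorial membrane and strial anlage had been dissected away. The sample labels carry the same protocol text for both groups, so the control group is known only by its label "control", and no label states whether replicates came from separate cultures or litters. The p-values given below for other genes therefore test the group difference against the spread between these samples, which may in part be technical. If the replicates were not independent, these p-values may be too low.

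Most Ly6 family proteins sit on the outer membrane leaflet by a glycosylphosphatidylinositol (GPI) anchor. Several resemble the toxins of snake venom in fold and bind nicotinic acetylcholine receptors, and others carry lipases, take part in leukocyte and endothelial surface biology or respond to interferon. In the cochlea, nicotinic receptors of the α9 and α10 subunits receive the efferent input to outer HCs. The 6 members Lynx1, Ly6e, Ly6a, Ly6c1, Ly6h and Gpihbp1 lie within 851.6 kb of chromosome 15 (mm10). Ly6g6c and Ly6g6e lie 6.9 kb apart in the major histocompatibility complex of chromosome 17, Lypd1 on chromosome 1 and Lypd6 on chromosome 2.

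Of the 10 genes, 4 were past the thresholds used here for a call, a Benjamini-Hochberg adjusted p below 0.05 in edgeR together with more than 1.5-fold difference. Ly6g6c and Ly6h were higher after neomycin, and Gpihbp1 and Ly6c1 were lower. Over all 15988 genes tested, 8.76% were called, 2.26% higher and 6.5% lower. Control and neomycin values lay fully apart for 5 of the 10 genes, the 4 called and Lypd1, against 43.5% of all genes tested. Since the list was made from this comparison, nothing is read from these counts. The median log2 fold change was -0.14 over the 10 genes and 0.00 over all genes tested. Total counts per sample ran from 50471116 to 66068108, so that 1 read stood for 0.0145 to 0.0192 counts per 1000000 reads (CPM). Markers of the labelled tissue were detected, with no reference tissue to set their levels against. A list of 16 HC markers summed to 936 to 1094 CPM in the control samples, and 14 supporting cell (SC) markers to 3426 to 3822 CPM.

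**Figure D1:**
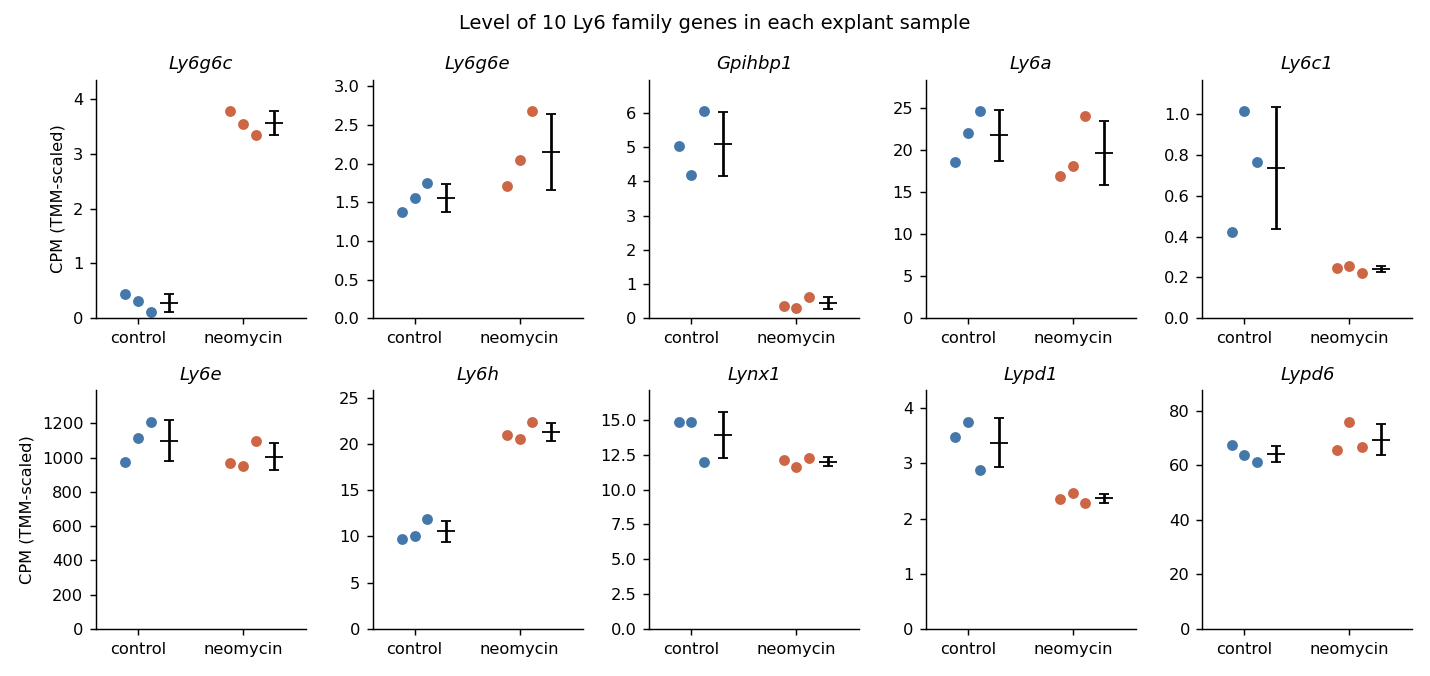
Level of the 10 genes in each sample, in TMM-scaled CPM on axes that start at 0. Each point is a sample, and the bar beside it is the mean with its SD (n = 3 per group). Ly6g6c and Ly6h lie higher in all 3 neomycin samples, and Gpihbp1, Ly6c1 and Lypd1 lie lower in all 3.

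Ly6g6c, at chr17:35065388-35070050 on the plus strand, is a little-studied member encoded in the histocompatibility complex. It had 30, 16 and 6 counts in control replicates 1, 2 and 3, and 201, 209 and 180 counts in neomycin replicates 1, 2 and 3. The exact Poisson interval of the lowest control count ran from 2.2 to 13.1 and that of the lowest neomycin count from 155 to 208, and such intervals cover counting error only. Every neomycin sample lay far above every control sample, and relative to the mean the SD was 58.5% in control and 6.1% after neomycin. In CPM the level went from 0.283 ± 0.165 to 3.56 ± 0.217 (SD, n = 3), a log2 fold change (log2FC) of 3.62 with a standard error (SE) of 0.36, or 12.3-fold. Leaving out single samples moved it between 3.25 and 4.12, the lowest without control replicate 3 and the highest without control replicate 1. In bulk samples, a change in the number of cells that make an RNA and a change in the RNA of each cell cannot be told apart, for this gene or any other named here.

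The promoter sequence of Ly6g6c is shown because this gene had the largest log2FC of the 10 in size, beside that of Ly6c1, a called gene in the opposite direction. Gpihbp1, whose fall was larger than that of Ly6c1, had no promoter sequence among those available here. RefSeq promoter sequences of the GRCm38 build were used here for 4 of the 10 genes, and the 250 bases before the annotated start were searched on both strands for 4 motifs, chosen after the values were known. These were the TATA box (TATAAA), an E-box that reads the same on both strands (CAGCTG), an ETS-type motif (CCGGAAG) and the core of the interferon-stimulated response element (ISRE). Capitals mark the matches, 5′ to 3′ in the direction of the gene.
Ly6g6c, chr17:35067075-35067324, plus strand: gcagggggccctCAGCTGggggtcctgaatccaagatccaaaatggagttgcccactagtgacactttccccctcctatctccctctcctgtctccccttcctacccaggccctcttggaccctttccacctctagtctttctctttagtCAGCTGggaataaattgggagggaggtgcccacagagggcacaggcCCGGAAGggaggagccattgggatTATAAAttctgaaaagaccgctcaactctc
Ly6c1, chr15:75048838-75049087, minus strand: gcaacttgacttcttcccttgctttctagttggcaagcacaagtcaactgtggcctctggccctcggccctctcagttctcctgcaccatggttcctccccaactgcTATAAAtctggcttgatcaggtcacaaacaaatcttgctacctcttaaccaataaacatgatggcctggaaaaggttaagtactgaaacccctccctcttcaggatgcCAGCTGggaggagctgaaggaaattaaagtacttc
The Ly6g6c window held TATAAA starting 30 bases before the start, CCGGAAG at 54 bases and CAGCTG at 100 and 238 bases. The Ly6c1 window held TATAAA at 143 bases and CAGCTG at 35 bases. Among 32851 promoters of the same length, 12.4% held TATAAA, 13% CAGCTG, 6.91% CCGGAAG and 2.98% the ISRE core. None of the windows of the 4 genes held the ISRE core. The RefSeq start of Ly6g6c lies inside the gene as GENCODE draws it, past the end of the overlap with G6b. Of the other windows, 1 of the 3 of Lypd1 held CAGCTG and CCGGAAG, the second Ly6c1 window held CAGCTG, and that of Lypd6 held none of these letters. GC content was 55.2% for Ly6g6c and 48.4% for Ly6c1, against a median of 52.4% over all promoters, and 70.4% for Lypd6.

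Ly6g6e, at chr17:35076902-35078804, encodes a protein known to modulate nicotinic receptors. Its control samples had 1.38, 1.55 and 1.74 CPM and its neomycin samples 1.71, 2.05 and 2.68 CPM, so the groups overlapped. The log2FC was 0.47 (SE 0.26), and correcting for gene length gave 0.17. Apart from G6b and Ly6g6d, which overlap the pair and are described last, the 5 measured genes on either side were examined, over 108.2 kb. Of these 10, 9 could be tested and 0 were called. At an adjusted p-value under 0.05 without the fold threshold were Ddah2, which breaks down a nitric oxide synthase inhibitor (log2FC 0.44, adjusted p = 0.00124), the chloride channel gene Clic1 (0.25, adjusted p = 0.033) and Gpank1 (0.37, adjusted p = 0.0101; edgeR), named after their values were seen. G6b, now named Mpig6b, a platelet receptor gene on the minus strand, overlaps the upstream end of Ly6g6c and shares 22 exonic bases with it. G6b went from 0.117 ± 0.0555 to 0.588 ± 0.124 CPM (SD, n = 3), a log2FC of 2.30 (SE 0.54, adjusted p = 0.00648, edgeR). It had 3 to 40 counts per sample and was also named after its values were seen. This overlap was taken from GENCODE, whereas the authors counted on the UCSC annotation, whose models may differ. The strand setting of the counting is not given in the sources used here. Reads of any shared bases therefore cannot be assigned to either gene. Ly6g6d, which shares 229 exonic bases with Ly6g6e on the opposite strand, had a log2FC of 0.19 (SE 0.30, adjusted p = 0.67, edgeR).

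**Figure D2:**
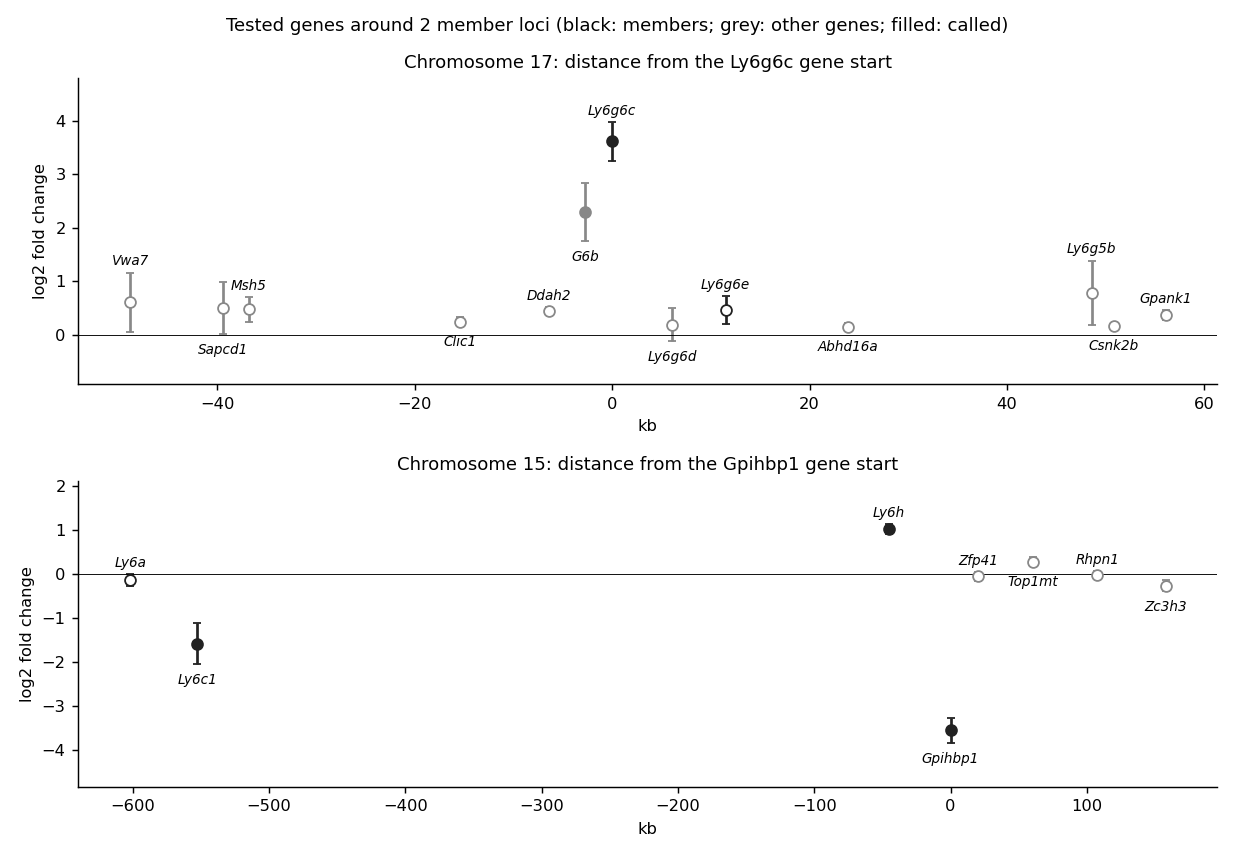
Log2FC of neomycin over control for the tested genes around Ly6g6c (above) and Gpihbp1 (below), against the distance of each gene's start in kb, with SEs. Black points are members, grey points other genes, and filled points are called. Around Ly6g6c the only other filled point is G6b, at 2.30, and to the right of Gpihbp1 the 4 tested genes lie near 0.

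Gpihbp1, at chr15:75596628-75599481 on the plus strand, encodes the protein of capillary endothelium that binds lipoprotein lipase and moves it to the vessel lumen. It had 348, 219 and 341 counts in control replicates 1, 2 and 3, and 19, 18 and 34 in the neomycin replicates. All 3 neomycin samples lay below all 3 control samples, and replicate 3 was the highest of both groups in CPM. The level went from 5.1 ± 0.936 to 0.432 ± 0.176 CPM (SD, n = 3), a log2FC of -3.56 (SE 0.29), and the control level was 11.8-fold the neomycin level. Leaving out single samples moved it between -3.94 and -3.36. No annotated gene overlaps it. The 5 measured genes on either side of Gpihbp1 were examined, over 862.4 kb. Of these 10, 3 are members themselves. Of the other 4 that could be tested, Zfp41, Top1mt, Rhpn1 and Zc3h3, 0 were called, with log2FC values from -0.27 to 0.28. The called neighbours were Ly6h, 29.4 kb away and higher, and Ly6c1, lower, which ends 502.4 kb before Ly6h starts. Leaving out control replicate 2, neomycin replicate 2 or neomycin replicate 3 left Ly6h as the only called neighbour.

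Genes of lipid handling were called in both directions. Of 17 genes of lipoprotein lipase and fatty acid uptake, 13 were tested, of which 2 were called higher and 1 lower, with a median log2FC of -0.03. Lpl, the lipase that GPIHBP1 carries, rose from 14.7 ± 3.46 to 26 ± 1.72 CPM (SD, n = 3; log2FC 0.81, SE 0.14, adjusted p = 0.00111, edgeR). Cd36, a fatty acid receptor, rose from 5.93 ± 0.469 to 10.5 ± 1.12 CPM (log2FC 0.83, SE 0.13, adjusted p = 0.000646, edgeR). Fabp4, a fatty acid binding protein of capillary endothelium and fat cells, fell from 20.4 ± 2.18 to 2.61 ± 0.22 CPM (log2FC -2.97, SE 0.13, edgeR, adjusted p = 6.41e-09). These 3 calls held under all 13 alternative settings. Lmf1, which folds the lipase, had a log2FC of 0.11 (adjusted p = 0.401), and Angptl4, an inhibitor of the lipase, had -0.29 (adjusted p = 0.251; edgeR).

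Endothelial markers were examined because Gpihbp1 is a gene of capillary endothelium. Of 20 genes, 12 were called lower, 0 higher and 8 were not called, with a median log2FC of -1.27 against 0.00 over all genes tested. Cldn5, a tight junction gene of vessels, had the lowest log2FC, -3.40 (SE 0.53, adjusted p = 0.00154, edgeR), and Emcn the highest, 0.12 (SE 0.08, adjusted p = 0.32). Pecam1, the CD31 gene, went from 9.78 ± 2.79 to 1.49 ± 0.47 CPM (SD, n = 3), and Cdh5, the VE-cadherin gene, from 8.81 ± 0.807 to 2.12 ± 0.213 CPM, both chosen as defining markers after their values were seen. No marker of the list was at 0 in any sample. The summed level of the list overlapped between groups, at 408 to 468 CPM in control and 375 to 429 CPM after neomycin, of which Emcn alone made 252 ± 12.1 and 273 ± 26.2 CPM. Of 16 HC markers, 14 were called lower and 0 higher, with summed levels of 936 to 1094 CPM in control and 318 to 377 CPM after neomycin. Atoh1, which drives HC fate, had a log2FC of -0.05 (adjusted p = 0.901), and Slc26a5, the prestin gene of outer HCs, -3.99 (adjusted p = 7.79e-10; edgeR). The part of either cell type in the level of Gpihbp1 was not tested.

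Ly6a, Ly6c1 and Ly6e form a run on chromosome 15 and are known as interferon-responsive surface antigens. Ly6a, the Sca-1 gene of stem and progenitor cells and of vessels, lies at chr15:74994877-74998031. Its control samples had 18.6, 22.1 and 24.7 CPM and its neomycin samples 16.9, 18.1 and 24.1 CPM, so the groups overlapped and replicate 3 was the highest in each. The log2FC was -0.15 (SE 0.14), and -0.45 with a correction for gene length. Ly6c1, at chr15:75044018-75048830, is known as a gene of microvessels. It had 29, 53 and 43 counts in control and 13, 15 and 12 after neomycin, or 0.734 ± 0.299 and 0.241 ± 0.0158 CPM (SD, n = 3). The groups did not overlap, although control replicate 1 came closest to the neomycin samples. The log2FC was -1.59 (SE 0.48), and the gene was not past the call thresholds without control replicate 2, neomycin replicate 2 or neomycin replicate 3. Its near-identical neighbour Ly6c2 had 0 to 9 counts per sample and was too low to test, and reads shared between the copies could have been lost or assigned to either gene.

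Ly6e, at chr15:74955051-74959905, encodes a broadly made antigen known as a viral entry and restriction factor. It had the highest level of the members, per kb of exon as well as in CPM, with 976, 1114 and 1211 CPM in the control samples and 969, 950 and 1097 CPM after neomycin. The ranges overlapped and the log2FC was -0.13 (SE 0.10). Of 24 interferon-stimulated genes, 5 were called higher and 0 lower, with a median log2FC of 0.23. Usp18, a feedback inhibitor of interferon signaling, had the highest (1.09, SE 0.24, adjusted p = 0.00421), and Oasl2 the lowest (-0.26, SE 0.10, adjusted p = 0.0649; edgeR). The count of 5 was 1 without neomycin replicate 2, 2 without neomycin replicate 3 and 2 with the gene length correction, while Usp18 was called under all 13 alternatives. Macrophage markers summed to 199 to 260 CPM in control and 278 to 334 CPM after neomycin, and 4 of 12 were called higher and 0 lower. That count was 0 when control replicate 1 was left out, 2 when either neomycin replicate 2 or 3 was left out and 1 with the gene length correction. In this list Aif1 had the highest log2FC (0.76, adjusted p = 0.0955) and Itgam the lowest (-0.17, adjusted p = 0.507; edgeR). The part of macrophages or of endothelium in the level of these 3 members was not tested.

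**Figure D3:**
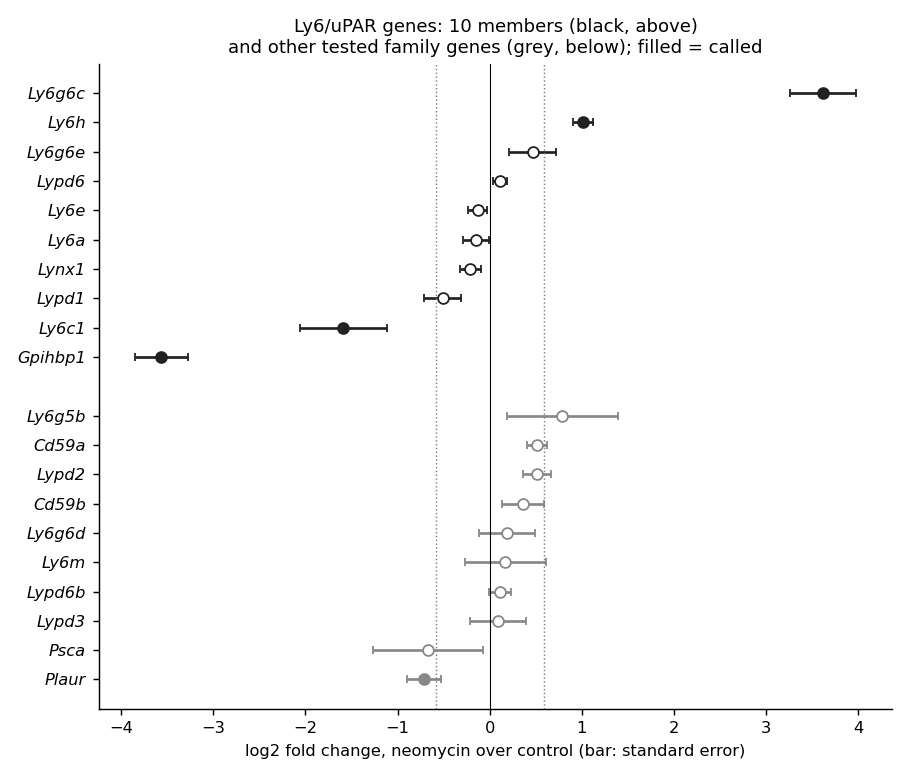
Log2FC of neomycin over control with its SE for the 10 members (black) and 10 other tested Ly6/uPAR genes (grey), where dotted lines mark a fold change of 1.5 and filled points are called. Ly6g6c at 3.62 and Gpihbp1 at -3.56 lie outermost, and the grey points run from -0.71 for Plaur to 0.79 for Ly6g5b.

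The remaining members are known for acting on nicotinic acetylcholine receptors. Ly6h, at chr15:75551268-75567255, encodes a neuronal member that holds back α7 receptors. It had 9.77, 10.0 and 11.9 CPM in control replicates 1, 2 and 3, and 20.9, 20.6 and 22.4 CPM in neomycin replicates 1, 2 and 3. The groups were far apart relative to their spread, with 10.5 ± 1.14 CPM in control and 21.3 ± 0.979 CPM after neomycin (SD, n = 3). The log2FC was 1.02 (SE 0.11), or 2.02-fold, and ran from 0.97 to 1.12 over the alternatives. Lynx1, at chr15:74747852-74753046, is the prototype toxin-like brake on nicotinic receptors. It had 12.0 to 14.9 CPM in control and 11.7 to 12.3 CPM after neomycin, a log2FC of -0.21 (SE 0.11), with control replicate 3 inside the neomycin range.

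Lypd1, also known as Lynx2, at chr1:125867622-125913101, had 3.48, 3.76 and 2.88 CPM in control and 2.35, 2.46 and 2.29 CPM after neomycin. The groups did not overlap, and the log2FC was -0.51 (SE 0.20), which passed the call thresholds only without control replicate 3. The gene Gpr39 on the opposite strand shares 1202 of its exonic bases. Lypd6, at chr2:50066429-50193569, encodes a regulator of nicotinic receptors and of the Wnt co-receptor LRP6. Its samples had 61.2 to 67.4 CPM in control and 65.6 to 76.1 CPM after neomycin, an overlap, with a log2FC of 0.11 (SE 0.08). The spread within groups was low for this gene, at 4.82% and 8.26% of the mean.

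Among 16 nicotinic receptor subunit genes, 11 were tested, 5 of them called lower and 2 higher. Chrna9 and Chrna10, the subunits of the outer HC efferent receptor, fell from 23.6 ± 4.62 to 3.63 ± 0.902 CPM (log2FC -2.70, SE 0.18, edgeR, adjusted p = 1.08e-06) and from 31.7 ± 2.66 to 7.01 ± 2.29 CPM (log2FC -2.18, SE 0.19, edgeR, adjusted p = 3.01e-05). The muscle-type subunit gene Chrna1 had the lowest log2FC, -2.74 (SE 0.16, adjusted p = 8.06e-08), and Chrng the highest, 1.37 (SE 0.35, adjusted p = 0.0103; edgeR). Chrnb2, a partner of α4 in the brain, fell by 1.10 on the log2 scale (SE 0.21, adjusted p = 0.00166, edgeR), while Chrna4 itself had 0.11 (adjusted p = 0.848). Chrna7, the α7 gene, had 5 to 50 counts per sample and a log2FC of -1.91 (SE 0.63, adjusted p = 0.0363, edgeR), a call lost under 6 of the 13 alternatives. Without neomycin replicate 2, 4 subunit genes were called in place of 7. Of the 16 HC markers, 14 were called lower in the same comparison, among them Chrna9 and Chrna10, which are in both lists. The part of HCs in the levels of the subunit genes was not tested.

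**Figure D4:**
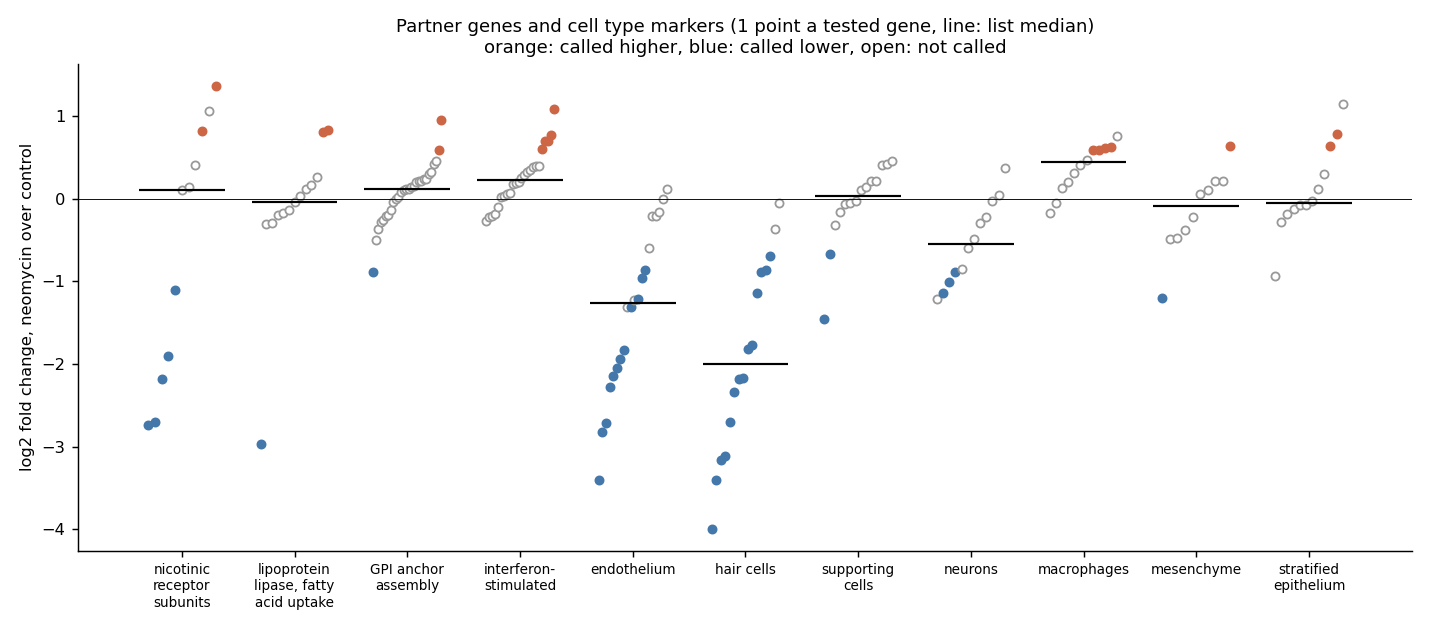
Log2FC of neomycin over control for every tested gene of 11 lists of partner genes and cell type markers, with the list median as a line. Orange points are called higher, blue points called lower and open points not called. The medians of HC markers and, at -1.27, endothelial markers lie lowest, and the nicotinic and fatty acid lists hold called genes in both directions.

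Neuron markers, relevant to Ly6h, Lynx1 and Lypd1 as genes of neurons, summed to 239 to 332 CPM in control and 219 to 239 CPM after neomycin. Of 12, 3 were called lower and 0 higher, and 6 were called lower without control replicate 3 and 5 with DESeq2. Nefh had the lowest log2FC (-1.21, adjusted p = 0.0881) and Syt1 the highest (0.37, adjusted p = 0.0413; edgeR). SC markers summed to 3426 to 3822 CPM in control and 4215 to 4374 CPM after neomycin. S100a1 alone made 1561 ± 216 and 2144 ± 126 CPM of these (SD, n = 3). Of the 14, 2 were called lower and 0 higher, with a median log2FC of 0.04. In that list Prox1 had the lowest log2FC (-1.46, adjusted p = 0.00121) and S100a1 the highest (0.46, adjusted p = 0.0088; edgeR). Mesenchyme markers summed to 6442 to 7062 and 6723 to 6959 CPM, with Col1a1 called lower (-1.20, adjusted p = 0.00137) and Dcn called higher (0.64, adjusted p = 0.000489; edgeR), the latter not without control replicate 2. Markers of stratified epithelium, in which several Ly6 genes are made, summed to 95.1 to 112 and 97.2 to 118 CPM. Of these, 2 of 12 tested were called higher, Krt10 and Krt15. Leaving out neomycin replicate 3 left 0 called, and leaving out control replicate 2, control replicate 3, neomycin replicate 1 or neomycin replicate 2 left 1 called higher. Without control replicate 1, and with the gene length correction, 0 were called higher and 1 lower, Krtdap. Krt1 had the highest log2FC (1.14, adjusted p = 0.168) and Krtdap the lowest (-0.94, adjusted p = 0.0929; edgeR). Krt5 had 0 to 6 counts per sample and Krt14 0 to 5. The part of these cell types in the members' levels was not tested.

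To compare levels between genes, CPM was divided by the length of all exons of a gene in kb. In control, Ly6e stood first at 291 ± 31.1 CPM per kb (SD, n = 3), followed by Ly6a at 18.1 ± 2.51 and Lypd6 at 17.2 ± 0.829, whose sample ranges overlapped. Lynx1, Ly6h and Gpihbp1 followed at 2.98 ± 0.356, 2.5 ± 0.269 and 2 ± 0.366 CPM per kb, each overlapping the next. Ly6g6e stood apart at 1.22 ± 0.144 CPM per kb. Lypd1, Ly6c1 and Ly6g6c came last at 0.479 ± 0.0635, 0.438 ± 0.178 and 0.207 ± 0.121 CPM per kb, again with overlaps between neighbours. After neomycin, Ly6g6c stood at rank 5 with 2.6 ± 0.159 CPM per kb, overlapping Lynx1 at rank 6 with 2.58 ± 0.0675. Gpihbp1 moved from rank 6 to rank 9, at 0.169 ± 0.0689 CPM per kb, overlapping Ly6c1 at rank 10. Ly6e kept rank 1 in both groups, and Ly6h moved from rank 5 to rank 4 at 5.04 ± 0.232 CPM per kb. With the length of the longest transcript in place of all exons, 6 of the 10 genes kept their control rank, Lynx1 trading places with Ly6h and Lypd1 with Ly6c1. After neomycin, these lengths put Gpihbp1 at rank 10 and Ly6c1 at rank 9, still overlapping. Ly6g6c kept rank 5, but its samples, at 3.48 to 3.93 CPM per kb, lay above those of Lynx1, at 2.9 to 3.05.

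**Figure D5:**
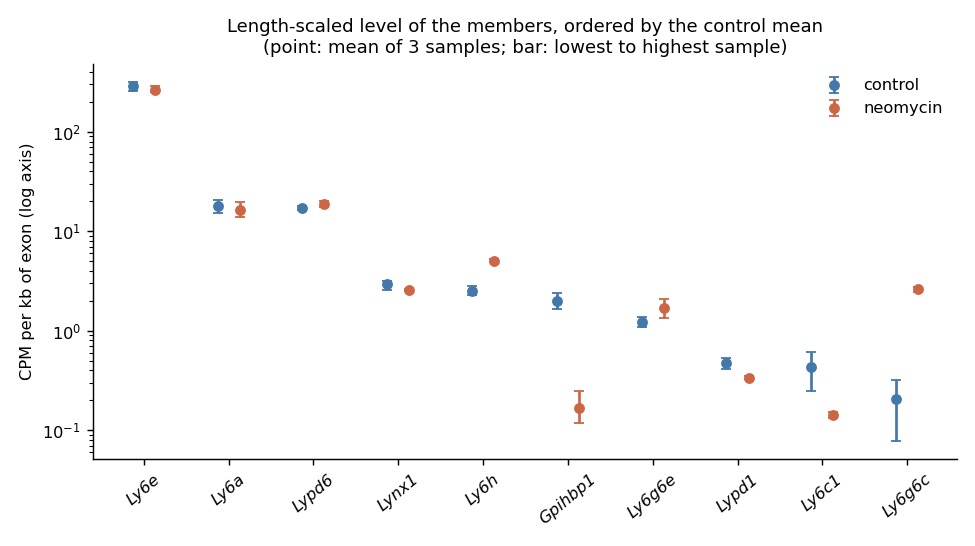
Level of each member per kb of exon in control (blue) and neomycin (orange) samples, on a log axis, ordered by the control mean. Points are means of 3 samples and bars run from the lowest to the highest sample. Ly6e lies highest in both groups, Ly6g6c moves from the last place to 2.6 CPM per kb and Gpihbp1 drops to 0.169.

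A further 40 Ly6/uPAR genes were listed, of which 35 had a row in the table and 9 of these had no read in any sample. Only 10 had enough counts to be tested, of which 1 was called lower and 0 higher, with a median log2FC of 0.18. The share called was 10%, near the 8.76% of all genes tested. Plaur, the urokinase receptor gene, fell from 8.95 ± 1.97 to 5.45 ± 1.13 CPM (SD, n = 3; log2FC -0.71, SE 0.19, adjusted p = 0.0125, edgeR), a call lost without control replicate 2 or without neomycin replicate 1. Ly6g5b had the highest log2FC, 0.79 (SE 0.60, adjusted p = 0.348, edgeR), from 4 to 21 counts per sample. Cd59a, a complement inhibitor, and Lypd2 had adjusted p-values of 0.00315 and 0.0225 (edgeR) with log2FC values of 0.52 and 0.51, short of the fold threshold, and were named after their values were seen. Cd59a passed it without control replicate 1, and Lypd2 without control replicate 2 or without neomycin replicate 1. Ly6d, a keratinocyte and B cell antigen, had 1 to 29 counts per sample and Ly6k 0 to 10, too few to test.

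Because these proteins need a GPI anchor, the genes that build it were counted as well. Of 28 such genes tested, 2 were called higher and 1 lower, with a median log2FC of 0.12. The share called was 10.7%, near the 8.76% of all genes tested. Dpm1, a subunit of the mannose donor synthase, rose by 0.95 on the log2 scale (SE 0.19, adjusted p = 0.00219, edgeR), and Pigb, a mannosyltransferase gene, had the lowest log2FC, -0.88 (SE 0.28, adjusted p = 0.0298, edgeR). Only Dpm1 was called under all 13 alternatives. Leaving out control replicate 2, neomycin replicate 2 or neomycin replicate 3, or correcting for gene length, left 1 called gene of the list.

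For both genes that defined the list, the most alike profiles were sought by the root mean square difference of log2 CPM over the 6 samples, each gene centred on its control mean, among 14036 genes of at least 1 CPM on average. Nearest to Ly6g6c were Umodl1 (difference 0.95), Otos (1.01), Myoc (1.14), Il13ra2 (1.17) and Vit (1.47). Otos, which encodes otospiralin of cochlear fibrocytes, had a log2FC of 2.69 (SE 0.31) and Umodl1 of 2.63 (SE 0.12), both below that of Ly6g6c. Nearest to Gpihbp1 were A530016L24Rik (0.31), Adgrl4 (0.36), Plscr5 (0.43), Ocm (0.43) and Fabp4 (0.47). Adgrl4 and Fabp4 are endothelial genes, and Ocm encodes oncomodulin, a calcium buffer of outer HCs. Adgrl4 went from 4.09 ± 0.941 to 0.468 ± 0.192 CPM and Ocm from 303 ± 72.6 to 28.6 ± 2.94 CPM (SD, n = 3). These genes were picked on the same samples for their likeness, so their values are a description.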

How the data were processed

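RNA-seq was done on 3 control and 3 neomycin samples of cochlear explants. The authors processed reads with Casava 1.8, trimmed them with trimmomatic 0.23, aligned them to mm10 with Hisat2 and counted them with HTSeq on the UCSC mm10 annotation, per the study's methods and the submitters' processing notes. The authors deposited counts, whole reads per gene symbol without normalization, as 1 column per sample. Strand setting, multi-mapping and annotation date are not given in the sources used here, which matters for overlapping genes and near-identical copies. Of the 24421 symbols, 23338 were found in GENCODE (mm10) directly and 655 under another symbol, which gave positions and exon lengths. Gene overlaps were also taken from GENCODE, not from the annotation used for counting.

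Counts were scaled by TMM, filtered with filterByExpr and tested with edgeR 4.0.16 under R 4.3.3 (quasi-likelihood test, robust, Benjamini-Hochberg over 15988 genes). Thresholds were those of the study, which used DESeq2. SE was taken as the absolute log2FC over the root of the F statistic. CPM are TMM-scaled counts per 1000000 reads. Members and lists were chosen with earlier results of these data known, and no list was given a set test. Named were all members, the lowest and highest gene of each list, known partners, called Ly6/uPAR genes, called neighbouring genes and the 5 nearest profiles. Other genes named in the text (further Ly6/uPAR genes, neighbours and cell type markers) were chosen after their values were seen. No pair of replicates agreed within sampling noise (chi-square per gene, averaged, 13.9 to 47.1). Alternatives were DESeq2 1.42.0, limma-voom (limma 3.58.1), other scalings, no filter, a gene length correction (lowess, span 0.3, 15838 genes), the replicate number as a block and each sample left out. On simulated counts of 15988 genes modelled on neomycin against control, edgeR called 85 of 100 genes changed 2-fold, 96 of 100 changed 4-fold and 4 unchanged genes. Figures were drawn with matplotlib 3.10.9.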

Additional observations from a re-analysis of the deposited data

How the results depend on the processing

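Over the 13 alternatives, the log2 fold changes of the 10 members kept their sign in every fit, and 128 of 130 moved by less than the SD between replicates. The exceptions came with the gene length correction, Ly6g6e at 0.17 and Ly6a at -0.45. Ly6g6c, Gpihbp1 and Ly6h were past the call thresholds in all 13, and Ly6c1 in 10. Over all genes, 1401 were called, 1052 to 1686 with 1 sample left out, and 4676 without the fold change threshold.

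With 1 sample left out, the called genes numbered 1 to 2 in the other Ly6/uPAR family, 4 to 7 among nicotinic subunits, 1 to 4 in GPI anchor assembly, 1 to 5 among interferon-stimulated genes, 2 to 6 for neurons, 0 to 5 for macrophages, 1 to 2 for mesenchyme, 0 to 1 for stratified epithelium (the 1 lower without control replicate 1) and 1 to 2 among neighbouring genes. With the gene length correction they were 1 in GPI anchor assembly, 2 among interferon-stimulated genes, 1 for SCs, 1 for macrophages and 1 for stratified epithelium, the last called lower where the main 2 were higher. In the other Ly6/uPAR family, the main fit called 0 higher and 1 lower. Without control replicate 2 it was 1 higher and 0 lower, and without neomycin replicate 1 it was 2 higher and 0 lower. DESeq2 called 5 neuron markers. With longest transcript lengths, 6 members kept their control rank. The cause of these shifts was not tested. The other 154 of 184 alternative counts stayed within 1.5 times the main count.

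Same-numbered samples of the 2 groups were treated as sharing only a number, since not every pair exceeded a correlation of 0.1: the correlation of their deviations from the group means was 0.165, 0.026 and 0.095 for replicates 1, 2 and 3. All 3 neomycin samples and 2 of the 3 control samples correlated best with their own number, and control replicate 2 did so with neomycin replicate 3 (0.032 against 0.026). With the replicate block, 1480 genes were called in place of 1401, 3 macrophage markers in place of 4 and 4 neuron markers in place of 3. Ly6c1 had 12 to 53 counts per sample, and its control samples differed by 40.8% of the mean (SD). Whether depth limits its call was not tested.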
